A study of Mus musculus with 24 samples.

Results

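The 9 genes described here encode OX40 (Tnfrsf4), GITR (Tnfrsf18) and 7 related receptors of the tumour necrosis factor receptor superfamily: 4-1BB (Tnfrsf9), CD27 (Cd27), CD30 (Tnfrsf8), TNFR2 (Tnfrsf1b), TNFR1 (Tnfrsf1a), DR3 (Tnfrsf25) and Fas. They were taken by name from the count table, by matching its Ensembl gene IDs to the symbols of GENCODE release M21, and make up 9 of its 39056 genes. All 9 passed the filter on low counts. OX40 holds a place of its own among them, because its ligand was injected into the treated mice. The study sequenced RNA of 4 sorted CD4 T cell subsets from lupus-prone female mice of the NZBWF1/j hybrid, 23 weeks old. Treated mice received recombinant mouse OX40L and recombinant mouse JAG1, a Notch ligand, each at 2 mg/kg into the peritoneum once a week, 3 times in all. Control mice received PBS, and cells of both were collected at week 26. Conventional T cells (Tconv) were sorted as CD4+ CXCR5- GITR-, regulatory T cells (Treg) as CD4+ CXCR5- GITR+, follicular helper cells (TFH) as CD4+ CXCR5+ PD1Hi with no or low GITR, and follicular regulatory cells (TFR) as CD4+ CXCR5+ PD1Hi GITRHi. Each of the 8 groups of subset and treatment has 3 libraries. OX40L and JAG1 were given together, so what either did by itself cannot be told apart. GITR protein defined the gates, so differences of Tnfrsf18 between subsets are given as a description with no test. Its treatment effects were tested, but cells of treated and control mice were both gated on GITR. The part of the gate in these effects was not tested.

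Receptors of this superfamily are surface proteins that bind trimeric ligands of the TNF superfamily. OX40, GITR, 4-1BB, CD27, CD30 and TNFR2 bind TRAF adaptor proteins and signal to NF-kB, and are known as costimulatory receptors that sustain T cells after antigen is met. TNFR1, DR3 and Fas carry a death domain in the cytoplasm, through which Fas can start cell death and TNFR1 and DR3 can signal either to NF-kB or to cell death. OX40, GITR, 4-1BB and TNFR2 are known to be abundant on regulatory T cells.

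Library totals ran from 2.54 to 53.8 M counts and were lowest in the control follicular groups, at 2.54 to 15.2 M in TFH and 4.85 to 9.62 M in TFR. Levels are read counts scaled to the library total (CPM) after TMM, a method that sets libraries to a common scale, and means are given ± SD of 3 libraries. Foxp3, the transcription factor of regulatory cells, averaged 473 CPM in control Treg and 354 in control TFR, against 5.81 in control Tconv and 47.3 in control TFH. The 5 follicular markers Cxcr5, Pdcd1, Bcl6, Icos and Sh2d1a summed to a mean of 1119 CPM in control Treg, sorted as CXCR5-. That was near the 1269 CPM of control TFH, with 1493 in control TFR and 289 in control Tconv. The sum does not separate Cxcr5, the gated marker, from the others. In treated mice the means were 793 in Treg, 1002 in TFH, 972 in TFR and 337 CPM in Tconv. Counts of mitochondrially encoded genes took 9.50 to 16.9% of the control libraries and 1.85 to 3.17% of the treated ones. The libraries control Tconv 1 and 2, treated TFH 3 and treated TFR 1 held transcripts of kidney podocytes, with a marker sum of 442 to 1162 CPM, and treated Treg 3 held 129 CPM. B cell markers summed to 43.2 to 86.7 CPM in control TFH and 20.2 to 21.5 CPM in treated TFH, against at most 11.9 CPM elsewhere. Depth, mitochondrial share and treatment moved together in these libraries, and their part in the treatment results was not tested. Whether the 3 libraries of a group stem from 3 mice is not in the labels, and a p-value thus covers only their spread, which may be technical.

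Stretches of 6 promoters are shown for the genes that much of the description below turns on, chosen after their values were seen. They come from RefSeq on GRCm38.p6, whose windows run from 250 bases before to 50 after a start site; 9 of 9 genes matched, with 11 windows. Each is printed 5′ to 3′ on the strand of the gene, as far as it lies outside annotated exons, from the C57BL/6J reference and not from the mice studied. Capitals mark matches to the kappaB consensus, the AP-1 letters TGANTCA or the STAT letters TTCNNNGAA, searched on both strands. The Tnfrsf4 stretch lies at chr4:156013611-156013694 (+), that of Tnfrsf18 at chr4:156026072-156026163 (+), that of the second Tnfrsf9 window at chr4:150927749-150927917 (+), that of Tnfrsf1b at chr4:145246871-145247120 (-), that of the second Tnfrsf25 window at chr4:152116115-152116342 (+) and that of Tnfrsf8 at chr4:145315165-145315414 (-).
Tnfrsf4: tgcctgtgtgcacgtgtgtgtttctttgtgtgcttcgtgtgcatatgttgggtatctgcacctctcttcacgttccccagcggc
Tnfrsf18: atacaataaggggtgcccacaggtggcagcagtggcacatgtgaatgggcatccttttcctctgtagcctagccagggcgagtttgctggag
Tnfrsf9: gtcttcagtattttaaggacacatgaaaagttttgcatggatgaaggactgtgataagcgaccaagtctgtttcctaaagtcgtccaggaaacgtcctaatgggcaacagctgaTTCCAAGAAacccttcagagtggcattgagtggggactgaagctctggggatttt
Tnfrsf1b: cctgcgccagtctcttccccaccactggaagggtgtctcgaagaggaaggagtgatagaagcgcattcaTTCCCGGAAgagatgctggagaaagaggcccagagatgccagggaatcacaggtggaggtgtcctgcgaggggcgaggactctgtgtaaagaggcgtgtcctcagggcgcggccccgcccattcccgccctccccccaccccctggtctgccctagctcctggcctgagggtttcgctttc
Tnfrsf25: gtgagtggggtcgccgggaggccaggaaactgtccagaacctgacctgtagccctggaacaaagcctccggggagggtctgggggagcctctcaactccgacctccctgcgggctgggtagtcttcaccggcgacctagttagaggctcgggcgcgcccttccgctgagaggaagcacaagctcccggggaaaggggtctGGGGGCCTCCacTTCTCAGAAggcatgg
Tnfrsf8: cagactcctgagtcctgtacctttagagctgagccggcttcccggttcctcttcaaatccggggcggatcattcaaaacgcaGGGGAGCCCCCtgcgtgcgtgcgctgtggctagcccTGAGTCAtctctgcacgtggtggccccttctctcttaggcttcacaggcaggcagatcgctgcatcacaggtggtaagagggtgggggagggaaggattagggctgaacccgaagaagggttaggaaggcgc

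The Tnfrsf9 and Tnfrsf1b stretches each hold 1 STAT match in capitals. The first run of capitals in the Tnfrsf8 stretch is the kappaB consensus, matched at 2 overlapping positions on the 2 strands, and the second is AP-1. In the Tnfrsf25 stretch the first run is the kappaB consensus and the second is STAT. The Tnfrsf4 window held none of the 3 motifs. The Tnfrsf18 window held a STAT match 99 bases before the start site, and the second Tnfrsf9 window held kappaB and AP-1 matches 43 and 15 bases before it, all 3 in annotated exons and outside the printed stretches. Over the 11 windows the kappaB consensus matched in 3 (Tnfrsf9, Tnfrsf25 and Tnfrsf8), AP-1 in 3 (Tnfrsf9, Tnfrsf8 and Fas) and STAT in 6 (Tnfrsf18, Tnfrsf9, Tnfrsf1a, Tnfrsf1b, Tnfrsf25 and Fas). Of 32851 mouse promoters of the same length, 8.46% held the kappaB consensus, 7.81% AP-1 and 8.30% STAT. A match is a description of letters and not a bound site.

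In mm10, 6 of the 9 genes lie on chromosome 4. Tnfrsf4 (ENSMUSG00000029075.6, 156013843 to 156016612) and Tnfrsf18 (ENSMUSG00000041954.18, 156026164 to 156028895) follow each other on the plus strand, with 9551 bases between them. Exons of the antisense gene Gm16008, not analysed here, overlap 414 bases of Tnfrsf18 exons, and the strand setting of the counting is not given in the sources used here, so reads of the pair may not be separated. Tnfrsf1b (ENSMUSG00000028599.10, 145213463 to 145246870) and Tnfrsf8 (ENSMUSG00000028602.12, 145267137 to 145315164) are neighbours on the minus strand. Tnfrsf9 (ENSMUSG00000028965.13, 150914562 to 150946102) and Tnfrsf25 (ENSMUSG00000024793.14, 152115934 to 152120119) are the others on that chromosome. Cd27 (ENSMUSG00000030336.14, 125232622 to 125237010, minus strand) and Tnfrsf1a (ENSMUSG00000030341.17, 125349362 to 125362484) lie on chromosome 6, and Fas (ENSMUSG00000024778.12, 34290666 to 34327772) on chromosome 19.

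The make-up of receptor mRNA differed between subsets. Levels of different genes were compared as CPM per kilobase of annotated exon. In control Tconv the 9 receptors summed to 203 ± 27.3 CPM per kb, and CD27 was the largest contributor, with 33.8% of the sum. In control Treg the sum was 752 ± 22.8 CPM per kb, of which 4-1BB made up 26.2% and OX40 24.7%. Control TFR lay at 764 ± 69.6 CPM per kb, with 30.4% from 4-1BB and 25.5% from OX40, and control TFH lay between these and Tconv at 404 ± 33.1 CPM per kb. In treated mice the sums were 184 ± 4.57 in Tconv, 595 ± 35.4 in Treg, 256 ± 15 in TFH and 880 ± 67.9 CPM per kb in TFR. OX40 was the largest single contributor in control TFH (25.8%), treated TFH (27.3%), treated Treg (33.7%) and treated TFR (34.2%). CD30 was the least abundant of the 9 in control Tconv, at 0.129 CPM per kb, and reached 22.1 CPM per kb in treated TFR.

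**Figure D1:**
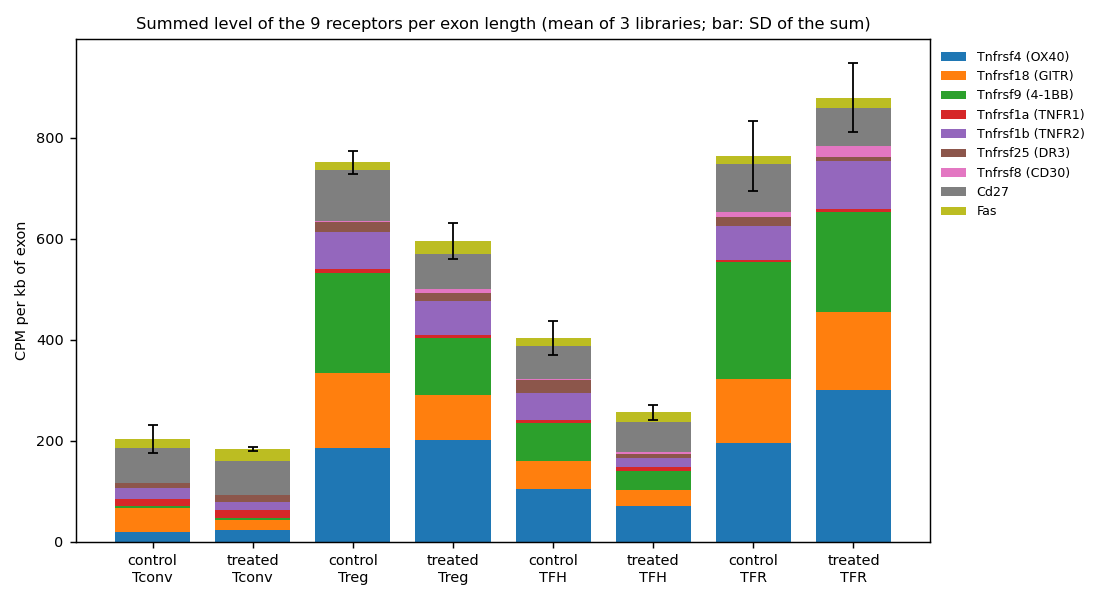
Stacked bars give the mean level of each of the 9 receptors, in CPM per kilobase of exon, in the 8 groups of subset and treatment, and the error bar is the SD of the sum over 3 libraries. The sum was 752 CPM per kb in control Treg and 764 in control TFR against 203 in control Tconv, and in treated mice it was 880 in TFR and 256 in TFH. It includes GITR, the sorting marker.

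**Figure D2:**
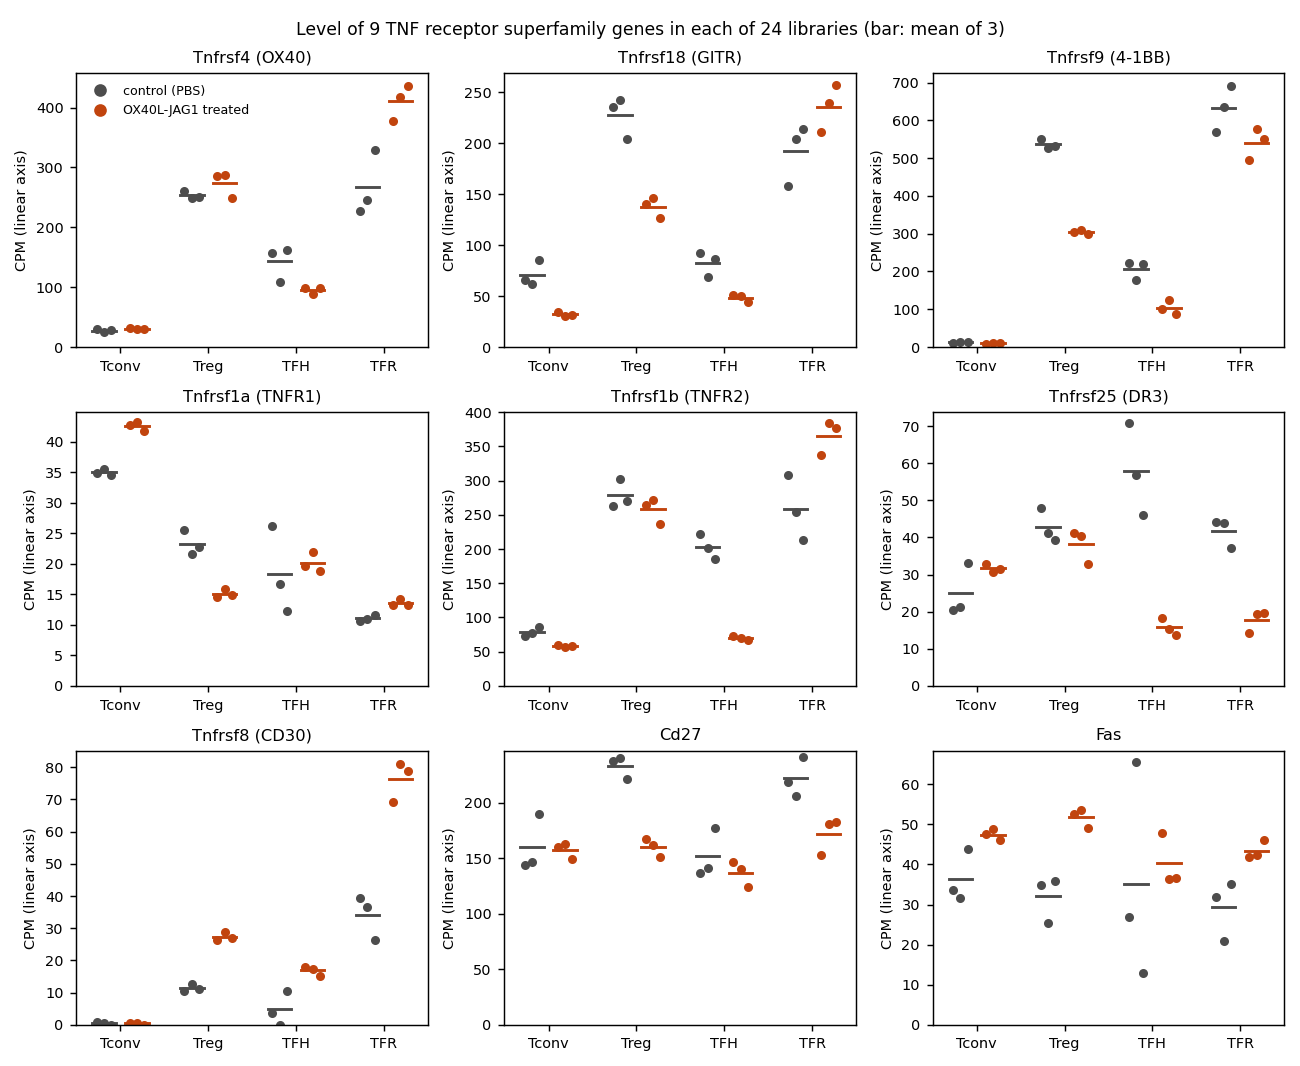
Each panel shows 1 receptor in CPM on a linear axis starting at 0, with 1 point per library, control in grey and treated in orange, and a bar at the mean of 3 libraries. OX40 in treated TFR (377 to 437 CPM) lies above every other group, and TNFR2 falls from 185 to 223 CPM in control TFH to 67.0 to 73.1 CPM in treated TFH.

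In control mice, regulatory cells carried more mRNA of the costimulatory receptors than conventional cells did. Of the 8 receptors tested, 6 were higher in Treg than in Tconv and none was lower, where 9.30% of all 18789 genes tested passed the threshold (adjusted p under 0.05, edgeR) and 5.90% were higher. The median log2 difference of the 8 was 1.30, against -0.06 for all genes. 4-1BB read 551, 526 and 532 CPM in control Treg and 11.2, 13.3 and 13.3 CPM in control Tconv, a 42.5-fold difference (log2 5.41 ± 0.15 SE, adjusted p = 1.3e-16). OX40 read 261, 249.7 and 251 CPM against 30.2, 24.6 and 27.7 CPM, a 9.23-fold difference (log2 3.21 ± 0.15, adjusted p = 5.5e-13). Every Treg library lay far above every Tconv library for both genes. TNFR2 was 3.54-fold higher (adjusted p = 9.8e-11), at 263 to 302 CPM against 73.2 to 85.4 CPM. CD30, a receptor of activated lymphocytes, read 10.6, 12.6 and 11.1 CPM in Treg and 0.875, 0.464 and 0 CPM in Tconv (log2 4.70 ± 0.93, adjusted p = 0.0014), where the 0 allows up to 0.0951 CPM. CD27 (log2 0.54 ± 0.12, adjusted p = 0.0030) and DR3 (log2 0.78 ± 0.21, adjusted p = 0.019) were higher by less. Neither call held without the 4 libraries with kidney transcripts, at log2 0.29 for CD27 and 0.37 for DR3. That fit leaves control Tconv 3 as the only library of its group. It read 190 CPM for CD27 and 33.2 CPM for DR3, against 144 and 147 CPM and 20.5 and 21.2 CPM in control Tconv 1 and 2. DR3 also lost its call without control Tconv 1, control Tconv 2, control Treg 1 or control Treg 2, with adjusted p of 0.13, 0.12, 0.11 and 0.053. The death domain receptors TNFR1 (log2 -0.58 ± 0.23, adjusted p = 0.11) and Fas (-0.18 ± 0.34, adjusted p = 0.85) did not pass the test. TNFR1 read 21.6 to 25.6 CPM in Treg and 34.5 to 35.5 CPM in Tconv. It was called lower in Treg by DESeq2 (adjusted p = 0.0014) and with only these libraries (0.012). GITR, the sorting marker, averaged 227 ± 20.3 CPM in Treg and 71.0 ± 12.7 CPM in Tconv, so mRNA was present in cells sorted as GITR-. In bulk samples, more cells of a type and more RNA per cell cannot be told apart.

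In the follicular pair, 4-1BB, OX40 and CD27 were higher in TFR than in TFH. Of the 8 tested, 5 were higher and 1 lower in control TFR than in control TFH, where 15.8% of all genes tested were called, with a median log2 difference of 0.45 against 0.00 for all genes. 4-1BB read 569, 634 and 691 CPM in TFR and 222, 177 and 219 CPM in TFH, a 3.06-fold difference (adjusted p = 9.5e-08). OX40 read 227, 245 and 329 CPM against 158, 109 and 162 CPM, a 1.86-fold difference (adjusted p = 0.00020). The 2 groups did not overlap for either gene. CD27 was higher by 0.54 ± 0.12 on the log2 scale (adjusted p = 0.0041), at 206 to 241 CPM against 136 to 178 CPM. CD30 (log2 2.70 ± 0.83, adjusted p = 0.031), TNFR2 (0.35 ± 0.11, adjusted p = 0.036, groups overlapping) and TNFR1 (-0.73 ± 0.23, adjusted p = 0.038) passed less firmly: among 14 alternative settings CD30 kept its call in 9, TNFR2 in 5 and TNFR1 in 5. Without control TFR 1 the adjusted p was 0.070 for TNFR1, 0.20 for TNFR2 and 0.060 for CD30, and without control TFR 2 it was 0.062, 0.055 and 0.054. Leaving out control TFH 1 ended the calls of TNFR1 (0.21) and CD30 (0.075), and leaving out control TFH 2 (0.060) or control TFH 3 (0.11) that of TNFR2. With only the 2 groups in the fit, 1 of the 8 receptors was called, 4-1BB. GITR averaged 192 ± 29.9 CPM in TFR and 82.5 ± 11.9 CPM in TFH. Beside these values, the summed regulatory markers (Foxp3, Il2ra, Ctla4 and Ikzf2, all 4 detected) lay at 857 to 953 CPM in control TFH, against 67.5 to 70.8 CPM in control Tconv. They summed to 2087 to 2227 CPM in control TFR and 1777 to 1843 CPM in control Treg.

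Control TFH carried more of 4-1BB, OX40, TNFR2 and DR3 than control Tconv, while CD27 and Fas did not pass the test. Of 8 receptors, 5 were higher and 1 lower, where 25.0% of all genes tested were called. The difference was 16.3-fold for 4-1BB (adjusted p = 3.3e-15) and 5.23-fold for OX40 (adjusted p = 3.6e-11), and on the log2 scale 1.37 ± 0.11 for TNFR2 (adjusted p = 7.1e-09) and 1.21 ± 0.21 for DR3 (adjusted p = 0.00025). TNFR1 was lower by a log2 difference of -0.93 ± 0.23 (adjusted p = 0.0054). CD30 passed at 3.58 ± 0.91 (adjusted p = 0.0064) although its groups overlapped, since control TFH read 3.65, 0 and 10.6 CPM; the 0 stands in the shallowest library and allows up to 1.16 CPM. Without control TFH 3 the adjusted p of CD30 was 0.092. DR3 (log2 0.79) and TNFR1 (-0.92) lost their calls without the 4 libraries with kidney transcripts, a fit that keeps only control Tconv 3 of its group. Between the regulatory subsets, control TFR against control Treg, 1 of the 8 receptors was called, where 9.75% of all genes tested were called and 7.46% were lower: TNFR1, at 10.7 to 11.6 CPM in TFR and 21.6 to 25.6 CPM in Treg (log2 -1.07 ± 0.23, adjusted p = 0.0045). The TNFR1 call was lost without the filter on low counts (adjusted p = 0.052) and with only these libraries (0.12). The log2 difference was 0.07 ± 0.13 for OX40 (adjusted p = 0.83) and 0.24 ± 0.12 for 4-1BB (adjusted p = 0.24). DESeq2 called 4-1BB higher in TFR (0.029). CD30 did not pass as fitted, at 26.3 to 39.5 CPM in TFR and 10.6 to 12.6 CPM in Treg, and was called with only these libraries (0.023).

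**Figure D3:**
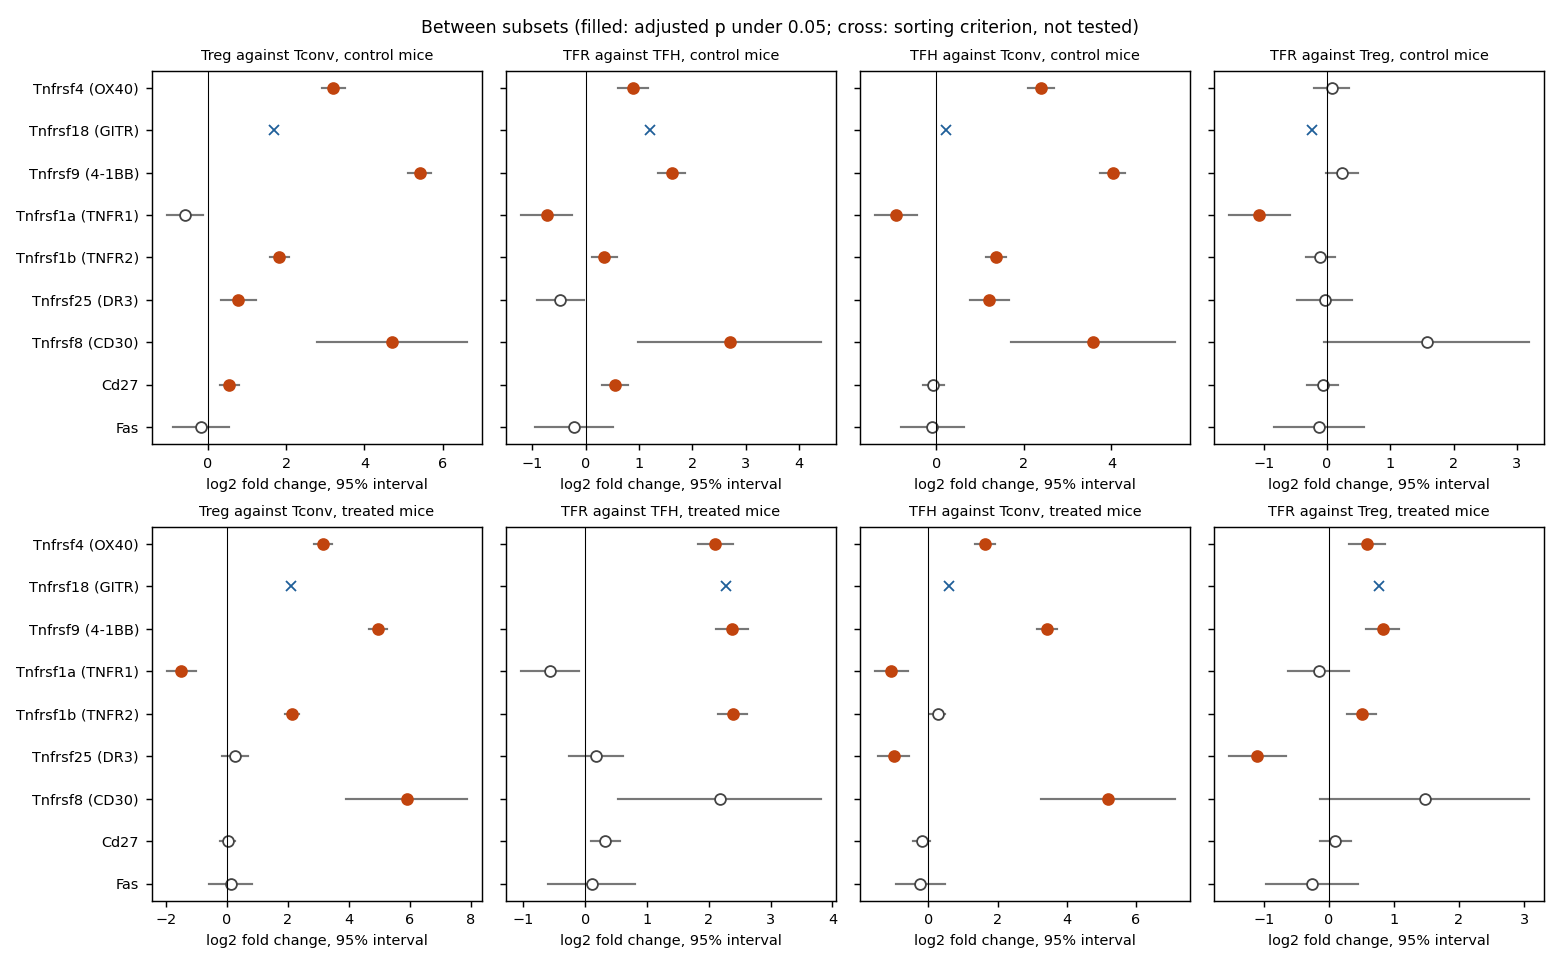
Log2 fold changes between subsets, with 95% intervals, are shown for the 9 receptors in 8 panels, 4 in control and 4 in treated mice, where filled points passed an adjusted p of 0.05 and crosses mark GITR, a sorting criterion that was not tested. OX40 and 4-1BB stand at 3.21 and 5.41 in control Treg against Tconv and at 0.89 and 1.61 in control TFR against TFH.

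Which receptors passed the test of treatment varied by subset. In Tconv 0 of 9 were higher and 2 lower in treated mice, where 9.94% of all genes tested were called and 3.05% were lower, and the median log2 difference of the 9 was 0.06 against 0.02 for all genes. In Treg 0 were higher and 3 lower, where 8.73% were called and 3.56% were lower, with medians of -0.17 and 0.09. In TFH 0 were higher and 5 lower, where 22.4% of all genes were called and 5.86% were called lower, with medians of -0.60 and 0.42. In TFR 2 were higher and 2 lower, where 15.6% of all genes were higher and 6.39% lower, with medians of 0.30 and 0.40. The all-gene medians of 0.42 and 0.40, also used below, depend on the setting. With every library thinned to the smallest they were 0.12 in TFH and 0.09 in TFR. With only the libraries compared they were 0.16 and 0.13. The filter of these fits can keep other genes, and the part of depth in the medians was not tested.

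OX40, the receptor of the injected ligand, rose in TFR, fell in TFH and did not pass the test in Tconv or Treg. In TFR it read 227, 245 and 329 CPM in control mice and 377, 417 and 437 CPM in treated mice. Every treated library lay above every control library, and the log2 difference was 0.62 ± 0.13 (adjusted p = 0.0019). In TFH it read 158, 109 and 162 CPM in control mice and 98.3, 89.0 and 98.3 CPM in treated mice, with no overlap (log2 -0.60 ± 0.14, adjusted p = 0.0033). Fitted on the TFH libraries alone, the fall had an adjusted p of 0.082. In Treg the values were 261, 249.7 and 251 CPM against 286, 287 and 249 CPM, which overlapped, and the 95% interval of the log2 difference ran from -0.17 to 0.39. In Tconv they were 30.2, 24.6 and 27.7 CPM against 31.5, 30.1 and 30.7 CPM (log2 0.16 ± 0.14, adjusted p = 0.54). In order of mean level, treated TFR (410.3 CPM) stood above treated Treg (274), control TFR (267) and control Treg (254), whose libraries overlapped each other, followed by control TFH (143), treated TFH (95.2) and the overlapping Tconv groups (30.8 treated, 27.5 control).

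GITR mRNA was lower in treated cells of 3 subsets, including both that were gated as GITR- or low. In Tconv it read 66.2, 61.4 and 85.4 CPM in control and 34.2, 30.5 and 31.5 CPM in treated mice (log2 -1.15 ± 0.14, adjusted p = 3.7e-06). In Treg it read 235, 242 and 204 CPM against 140.2, 146 and 126 CPM (log2 -0.72 ± 0.14, adjusted p = 0.00095). In TFH it read 92.0, 69.2 and 86.5 CPM against 50.6, 50.4 and 44.6 CPM (log2 -0.77 ± 0.14, adjusted p = 0.00039). Control and treated libraries did not overlap in any of these 3 subsets, and all 3 calls held under every alternative tried. TFR went the other way without passing the test, at 158, 204 and 214 CPM against 211, 239 and 257 CPM (log2 0.30 ± 0.14, adjusted p = 0.12), with overlap. The highest means stood in treated TFR (236 CPM) and control Treg (227), which overlapped, and the lowest in treated Tconv (32.1 CPM). Treated and control cells were both gated on GITR protein, and the part of the gate in these levels was not tested.

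4-1BB, a costimulatory receptor induced by activation, fell in Treg and TFH. Treg libraries read 551, 526 and 532 CPM in control and 304, 309.7 and 299.8 CPM in treated mice (log2 -0.82 ± 0.12, adjusted p = 7.6e-05). TFH libraries read 222, 177 and 219 CPM against 102, 124 and 87.0 CPM (log2 -0.98 ± 0.12, adjusted p = 5.8e-06). Neither pair of groups overlapped. In TFR the values of 569, 634 and 691 CPM against 495, 576 and 551 CPM overlapped (log2 -0.22 ± 0.12, adjusted p = 0.19). In Tconv the level was low, at 11.2 to 13.3 CPM against 8.52 to 11.2 CPM (log2 -0.38 ± 0.13, adjusted p = 0.067), a fall that was called by DESeq2 (0.0016), with scaling by relative log expression (0.011), without the filter on low counts (0.028), with only the Tconv libraries (0.033) and without treated Tconv 2 (0.038). The order of means ran from control TFR (632 CPM) through treated TFR (541) and control Treg (536), which overlapped, to treated Treg (305), control TFH (206), treated TFH (104) and Tconv.

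TNFR2, the TNF receptor that lacks a death domain, showed the widest split between the follicular subsets. In TFH it read 223, 201 and 185 CPM in control and 73.1, 70.1 and 67.0 CPM in treated mice, far apart (log2 -1.53 ± 0.11, adjusted p = 2.5e-09). In TFR it read 308, 255 and 213 CPM against 337, 384 and 376 CPM, also with no overlap but upwards (log2 0.50 ± 0.11, adjusted p = 0.0023). Treated TFH thus lay between the Tconv groups and overlapped neither, with Tconv at 73.2, 77.4 and 85.4 CPM in control and 59.7, 56.9 and 58.9 CPM in treated mice. The fall in Tconv passed (log2 -0.43 ± 0.11, adjusted p = 0.013), but the adjusted p lay between 0.051 and 0.069 without treated Tconv 2, treated Tconv 3 or control Tconv 3. The call was also lost, at log2 -0.54, without the 4 libraries with kidney transcripts, a fit that keeps only control Tconv 3 of its group. In Treg the ranges of 263 to 302 CPM and 237 to 272 CPM overlapped (log2 -0.11 ± 0.11, adjusted p = 0.69).

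DR3, the death domain receptor of TL1A, fell in both follicular subsets. In TFH it read 70.9, 56.8 and 46.1 CPM in control and 18.3, 15.4 and 13.7 CPM in treated mice (log2 -1.87 ± 0.22, adjusted p = 2.1e-06). In TFR it read 44.2, 43.8 and 37.1 CPM against 14.4, 19.5 and 19.7 CPM (log2 -1.23 ± 0.21, adjusted p = 0.00025). No treated follicular library reached the lowest control library of its subset. In Treg the ranges overlapped (log2 -0.17 ± 0.21, adjusted p = 0.78). In Tconv they overlapped as well, at 20.5, 21.2 and 33.2 CPM against 32.8, 30.8 and 31.6 CPM (log2 0.35 ± 0.21, adjusted p = 0.34).

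CD27, the receptor of CD70, fell modestly in the regulatory subsets. In Treg it read 237, 241 and 222 CPM in control and 168, 162 and 151 CPM in treated mice, with no overlap (log2 -0.54 ± 0.12, adjusted p = 0.0035). In TFR it read 219, 206 and 241 CPM against 153, 181 and 183 CPM (log2 -0.37 ± 0.12, adjusted p = 0.027). The TFR call was lost without treated TFR 1, a library with kidney transcripts (adjusted p = 0.15), and without control TFR 3 (adjusted p = 0.11), and the adjusted p was 0.051 without control TFR 1 and 0.050 without treated TFR 2. Tconv and TFH did not pass, with log2 differences of -0.03 ± 0.12 (adjusted p = 0.95) and -0.15 ± 0.12 (adjusted p = 0.35) and overlapping libraries.

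CD30, TNFR1 and Fas passed the test in no subset as fitted, although several of their groups did not overlap and some alternatives called them. CD30 read 10.6, 12.6 and 11.1 CPM in control Treg and 26.3, 28.9 and 27.0 CPM in treated Treg (log2 1.26 ± 0.77, adjusted p = 0.42). It read 3.65, 0 and 10.6 CPM against 17.9, 17.4 and 15.2 CPM in TFH (log2 1.68 ± 0.80, adjusted p = 0.13), and 39.5, 36.5 and 26.3 CPM against 69.1, 81.0 and 78.7 CPM in TFR (log2 1.16 ± 0.77, adjusted p = 0.29). All treated libraries lay above all control libraries in these 3 subsets, which 46.4% of all genes did in one direction or the other in Treg, 35.3% in TFH and 43.3% in TFR, and the 95% intervals were wide, from -0.34 to 2.86 in Treg. Fas read 35.0, 25.5 and 35.8 CPM against 52.6, 53.5 and 49.1 CPM in Treg (log2 0.69 ± 0.34, adjusted p = 0.29), and its groups also did not overlap in Tconv (43.0% of all genes) and TFR. In control TFH it read 26.9, 65.7 and 12.9 CPM, the widest spread of Fas in any group, against 47.9, 36.4 and 36.7 CPM in treated TFH. TNFR1 stood highest in treated Tconv, at 42.7, 43.2 and 41.7 CPM against 34.8, 35.5 and 34.5 CPM in control Tconv (log2 0.28 ± 0.22, adjusted p = 0.52), and lowest in control TFR, at 10.7 to 11.6 CPM against 13.2 to 14.2 CPM in treated TFR. In Treg it read 25.6, 21.6 and 22.7 CPM against 14.6, 15.8 and 14.8 CPM (log2 -0.63 ± 0.23, adjusted p = 0.096), again without overlap. With only the libraries of the groups compared, all 3 were called in Treg (adjusted p = 1.6e-05 for CD30, 0.00098 for TNFR1 and 0.0017 for Fas), and CD30 in TFR as well (0.0081). TNFR1 in Treg was also called by DESeq2 (0.0038) and after thinning (0.027). In TFH, CD30 was called without control TFH 3 (log2 2.98, adjusted p = 0.031) and after thinning (1.92, adjusted p = 0.033), and Fas without control TFH 2 (1.04, adjusted p = 0.0082).

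**Figure D4:**
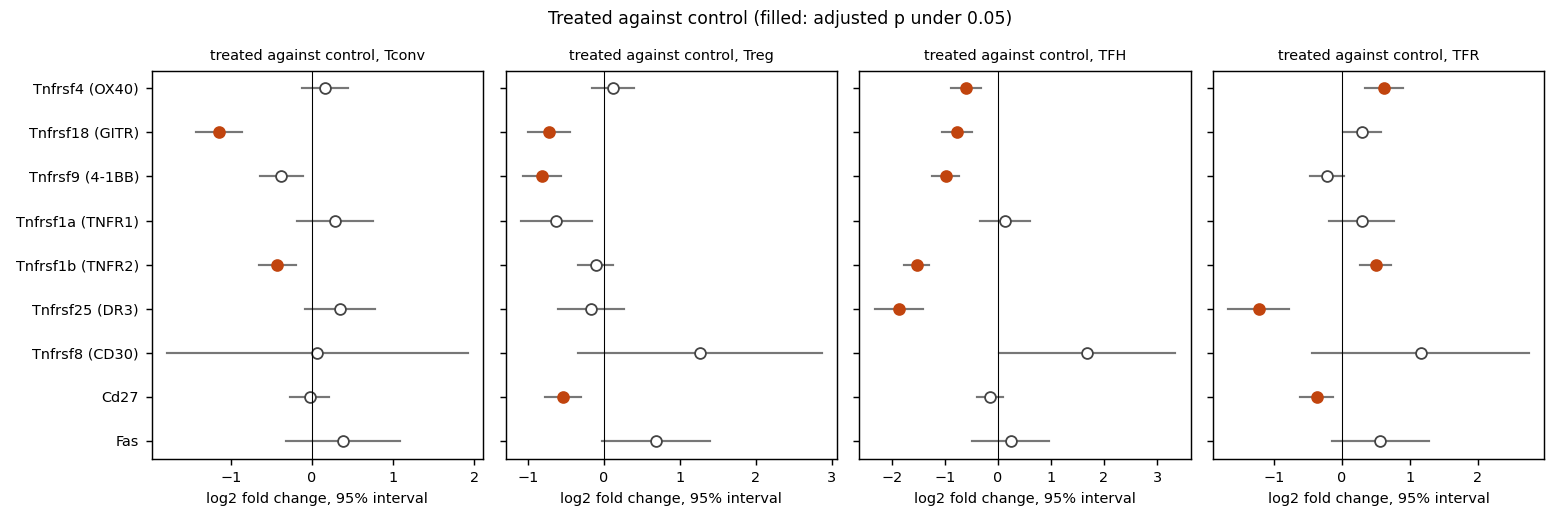
Log2 fold changes of treated against control mice, with 95% intervals, are shown for the 9 receptors in 1 panel per subset, and filled points passed an adjusted p of 0.05. OX40 and TNFR2 stand at 0.62 and 0.50 in TFR and at -0.60 and -1.53 in TFH, and the intervals of CD30 are the widest.

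The treatment effects on 4 receptors differed between TFR and TFH by a test of the difference itself, all 4 being higher in TFR, where 7.05% of all genes tested were called and 3.30% were higher. The difference of log2 effects was 2.03 ± 0.16 for TNFR2 (adjusted p = 3.9e-07), 1.22 ± 0.19 for OX40 (adjusted p = 0.00069), 1.07 ± 0.19 for GITR (adjusted p = 0.0022) and 0.76 ± 0.17 for 4-1BB (adjusted p = 0.011). GITR protein set both gates, and the part of the gates in the GITR difference was not tested. For OX40 and TNFR2 the effects had opposite signs, up in TFR and down in TFH. Without the 4 libraries with kidney transcripts these differences were 2.07, 1.30, 1.10 and 0.71, and with every library thinned to the smallest they were 2.01, 1.28, 0.94 and 0.70, all still called. With only the libraries of these groups, 4-1BB lost its call (0.75, adjusted p = 0.13). DR3 fell in both, by -1.23 in TFR and -1.87 in TFH. Between TFH and Tconv 4 of 9 differed, all lower in TFH, where 19.6% were called and 5.22% were lower: DR3 by -2.22 ± 0.30 (adjusted p = 6.5e-05), TNFR2 by -1.11 ± 0.16 (adjusted p = 0.00011), OX40 by -0.76 ± 0.19 (adjusted p = 0.012) and 4-1BB by -0.60 ± 0.18 (adjusted p = 0.025). Without the 4 libraries with kidney transcripts, which keeps only control Tconv 3 of its group, OX40 and 4-1BB lost their calls. The 4-1BB call was also lost without treated Tconv 2 (0.081), control Tconv 1 (0.068), treated TFH 1 (0.058) or treated TFH 3 (0.077).

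Between the regulatory subsets, TFR against Treg, 3 of 9 effects were higher and 1 lower in TFR, where 7.49% of all genes were called. The difference was 1.02 ± 0.19 for GITR (adjusted p = 0.0023), 0.61 ± 0.15 for TNFR2 (adjusted p = 0.019), 0.59 ± 0.17 for 4-1BB (adjusted p = 0.037) and -1.06 ± 0.30 for DR3 (adjusted p = 0.033). That of GITR, whose protein defined the gates, held under every alternative, while DR3 kept its call in 6 of 20 and 4-1BB in 7 of 20. The 4-1BB call was lost without any 1 of the 12 libraries other than treated TFR 1 and control TFR 3, and the DR3 call without any other than treated Treg 3, control Treg 1 and control TFR 3. TNFR2 lost its call without treated Treg 3 (adjusted p = 0.068), control Treg 2 (0.058), treated TFR 2 (0.056) or treated TFR 3 (0.054). For OX40 the difference of 0.51 ± 0.19 did not pass (adjusted p = 0.11), so its rise in TFR was not shown to differ from its value in Treg. Between Treg and Tconv 0 of 9 differed, where 2.68% of all genes were called by edgeR; 4 of 9 had an unadjusted p under 0.05 and DESeq2 called 4. Follicular comparisons rest on the shallow control TFH and TFR libraries, and B cell markers were lower in treated than in control TFH, as given above. Markers of CD8 and NK cells summed to 0.204 to 3.48 CPM in control and 42.9 to 51.7 CPM in treated TFH, to 1.85 to 9.66 against 35.7 to 44.2 CPM in TFR, to 20.9 to 30.2 against 60.3 to 66.8 CPM in Tconv and to 9.64 to 17.5 against 20.1 to 21.8 CPM in Treg. Of these 5 markers, Cd8a and Ncr1 were at 0 in both TFH groups, and Prf1 made up 42.4 CPM of the treated TFH mean. The 4 plasma cell markers summed to 152 to 180 against 313 to 358 CPM in TFH and to 164 to 206 against 360 to 398 CPM in TFR, with Jchain going from 18.6 to 175 CPM in TFH and from 4.47 to 109 CPM in TFR. The part of these values in the differences was not tested.

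In treated mice OX40, 4-1BB and TNFR2 were higher in TFR than in either TFH or Treg. Of 8 tested, treated TFR exceeded treated TFH in 3 and was lower in 0, where 9.57% of all genes were called and 4.61% were higher: TNFR2 5.22-fold (adjusted p = 4.3e-11), 4-1BB 5.17-fold (adjusted p = 1.6e-10) and OX40 4.31-fold (adjusted p = 2.0e-09). GITR, not tested, differed 4.86-fold. CD30 did not pass as fitted, at 69.1 to 81.0 CPM in treated TFR and 15.2 to 17.9 CPM in treated TFH. It was called higher in TFR by DESeq2 (adjusted p = 0.035), without the filter on low counts (0.040), with only these libraries (0.00014) and after thinning (0.018). DESeq2 and the fit on only these libraries also called CD27 higher (0.0092 and 0.041) and TNFR1 lower (0.0050 and 0.015). Treated Treg exceeded treated Tconv in 4 receptors and was lower in 1, where 11.9% were called, with 4-1BB 31.4-fold (adjusted p = 7.2e-16) and OX40 8.91-fold (adjusted p = 1.1e-12) higher and TNFR1 lower at log2 -1.50 ± 0.23 (adjusted p = 5.8e-05). TNFR2 (log2 2.14 ± 0.11, adjusted p = 1.2e-11) and CD30 (5.90 ± 0.96, adjusted p = 0.00012) were the other 2 higher in treated Treg. Treated TFH against treated Tconv gave 3 higher and 2 lower, where 18.1% were called, with OX40 (log2 1.63 ± 0.14, adjusted p = 1.1e-08), 4-1BB (3.43 ± 0.13, adjusted p = 1.0e-13) and CD30 (5.20 ± 0.93, adjusted p = 0.00030) higher. TNFR1 (-1.08 ± 0.23, adjusted p = 0.0015) and DR3 were lower in TFH (-1.01 ± 0.21, adjusted p = 0.0015), and TNFR2 was not called as fitted (0.26 ± 0.11, adjusted p = 0.10). TNFR2 read 67.0 to 73.1 CPM in treated TFH and 56.9 to 59.7 CPM in treated Tconv. It was called higher in TFH by DESeq2 (adjusted p = 0.0049), with relative log expression factors (0.023), with only these libraries (0.019) and after thinning (0.043). Treated TFR against treated Treg gave 3 higher and 1 lower, where 4.61% were called. OX40 (log2 0.58 ± 0.13, adjusted p = 0.011), TNFR2 (0.50 ± 0.11, adjusted p = 0.0071) and 4-1BB (0.83 ± 0.12, adjusted p = 0.00016) were higher in TFR and DR3 lower (-1.10 ± 0.21, adjusted p = 0.0026). Without treated Treg 3 the adjusted p was 0.085 for OX40 and 0.065 for TNFR2, and without treated TFR 3 it was 0.069 for OX40. With only these libraries CD30 was also called higher in TFR (adjusted p = 8.4e-06) and Fas lower (0.0030).

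Across the 8 group means of log2 CPM, OX40 and 4-1BB followed each other most closely among the receptors, with a Pearson r of 0.98. GITR and TNFR2 had an r of 0.94, and OX40 had 0.93 with both TNFR2 and CD30. TNFR1 ran against them, with r of -0.92 to CD30 and -0.89 to both OX40 and 4-1BB. These values describe 8 points that share libraries, sorts and scaling, and carry no test. Among 10978 protein-coding genes, the patterns most like OX40 were those of Socs2, Hopx and Psen2, each with r of 0.99. Those most like 4-1BB were Zc3h12d, Plagl2 and Lrrc32, the last encoding GARP, a surface protein of regulatory T cells, each with r of 0.99. GITR was nearest to Gbp3, Fgl2 (both 0.96) and Mrps2 (0.95), TNFR2 to Acot9 (0.97), Mrps2 (0.96) and Zdhhc6 (0.95), and CD30 to Cpox, Ppil1 (both 0.99) and Adprh (0.98). CD27 was nearest to Oxa1l (0.97), Faim and Calca (both 0.96), DR3 to 2010315B03Rik, Paxbp1 (both 0.96) and Ints8 (0.95), TNFR1 to Gpr132 (0.99), Usp22 and Dse (both 0.98), and Fas to Zbtb7b (0.97), Ganc and Atg10 (both 0.96).

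**Figure D5:**
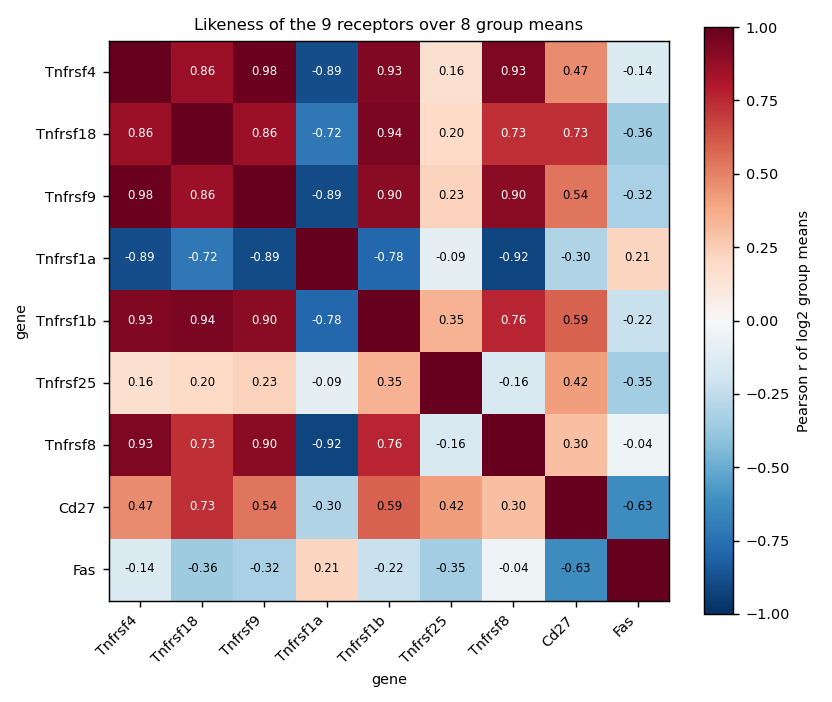
The heatmap gives Pearson r between each pair of the 9 receptors over the 8 group means of log2 CPM. OX40, 4-1BB, TNFR2, GITR and CD30 form the positive block, with 0.98 for OX40 and 4-1BB, and TNFR1 is negative to them, down to -0.92 with CD30.

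Of the receptors' own ligands, 8 of 9 genes were tested. With treatment 2 rose and 1 fell in Tconv, 1 rose and 2 fell in Treg, 1 rose and 1 fell in TFH, and 3 rose and 2 fell in TFR. Over all genes tested 9.94% were called in Tconv, 8.73% in Treg and 22.4% in TFH, and in TFR 15.6% were higher and 6.39% lower. The median log2 difference of the ligands was 0.42, 0.45, 0.17 and 0.79 in the same order, against 0.02, 0.09, 0.42 and 0.40 for all genes. Genes without reads in a group were also set to the limit that a count of 0 allows, or left out. The ligands' median was then 0.76 in Tconv and otherwise the same. Tnfsf8, the ligand of CD30, rose from 21.9 ± 2.84 to 94.8 ± 5.66 CPM in Tconv (log2 2.12 ± 0.11, adjusted p = 2.9e-11) and fell elsewhere, from 422 ± 18.2 to 223 ± 3.45 CPM in Treg (adjusted p = 4.3e-06), from 509 ± 47.3 to 227 ± 34.7 CPM in TFH (adjusted p = 1.1e-07) and from 482 ± 47.9 to 128 ± 7.62 CPM in TFR (adjusted p = 8.1e-11). Tnf, the ligand of TNFR1 and TNFR2, rose in all 4 subsets, from 92.4 to 246 CPM in TFH (log2 1.42, adjusted p = 2.8e-05) and by 0.77 in Treg (adjusted p = 0.014). Tnfsf4, the mouse gene of OX40L itself, fell in Tconv (log2 -1.66, adjusted p = 0.0072), in Treg from 22.2 to 4.61 CPM (log2 -2.27, adjusted p = 0.00049) and in TFR from 38.8 to 12.5 CPM (log2 -1.63, adjusted p = 0.0044), and did not pass in TFH (-0.75, adjusted p = 0.16). The injected ligand was a protein, so it adds no reads to Tnfsf4. Cd70, the ligand of CD27, was at 0 in every Tconv, control TFH and control TFR library, and its group means elsewhere were at most 1.35 CPM, in treated TFR, where it is 1 of the 3 called higher (adjusted p = 0.016). Among control subsets, Tnfsf4 was higher in Treg than in Tconv (log2 2.20, adjusted p = 0.00058) and in TFR than in TFH (1.22, adjusted p = 0.037).

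Downstream of the receptors, genes of TRAF signalling were called in both directions in every subset. NF-kB genes were called in both directions in Tconv and Treg, and only as higher in TFH and TFR. Over all genes tested 9.94% were called in Tconv, 8.73% in Treg and 22.4% in TFH, and in TFR 15.6% were higher and 6.39% lower. Of 12 TRAF adaptors and partners, all tested, 3 rose and 1 fell in Tconv, 2 and 1 in Treg, 1 and 3 in TFH, and 3 and 3 in TFR, with medians of 0.20, 0.02, -0.25 and 0.03 against 0.02, 0.09, 0.42 and 0.40 for all genes. Tnfaip3, which encodes the NF-kB inhibitor A20, rose from 3230 to 6789 CPM in Tconv (log2 1.07, adjusted p = 2.3e-08), by 0.66 in TFH (adjusted p = 1.8e-05) and by 0.50 in TFR (adjusted p = 0.00037), and did not pass in Treg (0.03, adjusted p = 0.94). Map3k14, encoding the kinase NIK of non-canonical NF-kB signalling, fell in all 4 subsets, by -0.81 in TFH (adjusted p = 8.4e-05) to -1.34 in TFR (adjusted p = 1.0e-07). In control mice Traf1 (log2 1.25, adjusted p = 2.3e-08) and Tank (1.35, adjusted p = 1.5e-06) were higher in Treg than in Tconv. Of 14 NF-kB subunits and inhibitors, 6 rose and 3 fell in Tconv, 3 and 3 in Treg, 5 and 0 in TFH, and 4 and 0 in TFR. Their medians were 0.18, -0.06, 0.16 and 0.06, against 0.02, 0.09, 0.42 and 0.40 for all genes. Nfkbiz, an atypical IkB protein, rose in all 4 subsets, by 1.75 in Tconv (adjusted p = 6.5e-10) and by 0.50 in TFR (adjusted p = 0.0033). Nfkbia, encoding IkB-alpha, rose by 1.18 in Tconv (adjusted p = 1.4e-09), by 0.44 in TFH and by 0.51 in TFR, and did not pass in Treg (-0.04, adjusted p = 0.90).

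Of 19 other receptors of the superfamily, 17 were tested, and with treatment 0 rose and 3 fell in Tconv, 0 and 2 in Treg, 2 and 2 in TFH, and 0 and 2 in TFR. Over all genes tested 9.94% were called in Tconv (3.05% lower), 8.73% in Treg (3.56% lower) and 22.4% in TFH. In TFR 15.6% were higher and 6.39% lower. The medians of the 17 were -0.43, 0.31, -0.03 and 0.30, against 0.02, 0.09, 0.42 and 0.40 for all genes. With genes lacking reads treated in the same way, those of the 17 were 0.16 in Treg and 0.23 in TFR. Tnfrsf26 fell in all 4 subsets, from 133 to 69.5 CPM in Tconv (log2 -0.93, adjusted p = 0.00029) and from 111 to 38.9 CPM in TFR (-1.52, adjusted p = 6.1e-07), and Tnfrsf23, whose close paralog Tnfrsf22 may share its reads, fell as well in all 4, by -1.60 in Tconv (adjusted p = 0.00054) and -1.43 in Treg (adjusted p = 0.0019). Tnfrsf14, the receptor HVEM, rose from 15 ± 7.85 to 47.7 ± 4.84 CPM in TFH (log2 1.63, adjusted p = 0.00016).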

How the data were processed

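RNA of 4 sorted CD4 T cell subsets from treated and control mice was measured in 24 libraries of 8 groups, grouped by their labels. Per the labels' protocols, total RNA was DNase treated, depleted of ribosomal RNA and made into CORALL libraries. Per the submitters' processing notes, STAR, featureCounts and the mm10 genome were used; which versions, annotation and strand setting is not given in the sources used here. Deposited values are raw counts of reads for each Ensembl gene. Of 39056 genes, 38872 IDs matched GENCODE M21.

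From these counts edgeR 4.0.16 (R 4.3.3) tested 18789 genes kept by filterByExpr, with TMM scaling, 1 model of 8 group means over all 24 libraries, a two-sided quasi-likelihood F test and Benjamini-Hochberg adjustment over all genes tested, at a threshold of 0.05. The tests were run on simulated data first. The common biological coefficient of variation was 0.617. Log2 fold changes are given ± SE, with 95% intervals from the t distribution. CPM per kb uses the merged exon length of M21. Folds are 2 to the power of the log2 fold change. The limit that a count of 0 allows is 3 counts and covers counting error only. The members and lists were chosen with earlier results of these data known. The text names all 9 members, from each list up to 3 genes with the smallest p over the treatment comparisons and 3 over Treg against Tconv and TFR against TFH in control mice (a selection of these is printed, and 1 list is not reported here), and the 3 genes with the highest r to each member among genes with a group mean of at least 5 CPM (pseudocount 0.5). No 2 libraries of the same group agreed within sampling noise.

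Alternatives were DESeq2 1.42.0, size factors by relative log expression, no filter on low counts, only the libraries compared, a replicate block, leaving out each library, and leaving out 4 libraries with kidney transcripts. Leaving out treated Treg 3 with them (5 libraries) and thinning every library to the smallest were added after the data were seen.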

Additional observations from a re-analysis of the deposited data

Results flagged for a closer look

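The size of the treatment effect differed between subsets, by edgeR's test of the difference itself, in 12 combinations of receptor and subsets. Positive values mean a higher effect in the subset named first. For TFR against TFH the difference of log2 effects was 1.22 for OX40 (Tnfrsf4), 1.07 for GITR (Tnfrsf18), 0.76 for 4-1BB (Tnfrsf9) and 2.03 for TNFR2 (Tnfrsf1b). For TFH against Tconv it was -0.76 for OX40, -0.60 for 4-1BB, -1.11 for TNFR2 and -2.22 for DR3 (Tnfrsf25). For TFR against Treg it was 1.02 for GITR, 0.59 for 4-1BB, 0.61 for TNFR2 and -1.06 for DR3. The comparisons share groups, so these 12 values are not independent. Those of GITR stand between subsets gated on its protein, and the part of the gates in them was not tested.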

How the results depend on the processing

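Over all comparisons 62 receptor values were called, of which 39 kept their call under every alternative and 23 lost it under at least 1. Another 27 values were called under at least 1 alternative only, and 26 uncalled values changed sign. The number of receptors called moved by over 1.5 times as follows, and by less or not at all under the other settings, apart from leaving out 1 library. With only the libraries compared it went from 3 to 6 for treatment in Treg, from 6 to 1 for TFR against TFH in control mice, from 3 to 6 for the same subsets in treated mice, from 0 to 4 for the difference of effects between Treg and Tconv and from 4 to 2 between TFH and Tconv. With DESeq2 it went from 1 to 2 for TFR against Treg in control mice, from 3 to 6 for TFR against TFH in treated mice and from 0 to 4 for Treg and Tconv. With no low-count filter it went from 1 to 0 for TFR against Treg in control mice and from 4 to 2 for the difference between TFR and Treg. Without the 4 libraries with kidney transcripts it went from 2 to 1 for treatment in Tconv and from 4 to 2 for TFH and Tconv. Leaving out treated Treg 3 as well gave the same 1 and 2, and 2 for TFR against Treg in treated mice and 1 for TFR and Treg. Both of these fits also took Treg against Tconv, TFR against TFH and TFH against Tconv in control mice from 6 to 4 each, a move within 1.5 times. Tnfrsf18 in control TFH against Tconv, not tested, changed from 0.22 to -0.047 without these 4 or 5 libraries. The cause of these moves was not tested, beyond the fewer libraries that some of the fits hold. The fits without the libraries with kidney transcripts keep only control Tconv 3 of its group.

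Leaving out 1 library at a time gave 1 to 2 receptors for treatment in Tconv, 3 to 3 in Treg, 5 to 6 in TFH and 3 to 4 in TFR. In control mice it gave 5 to 6 for Treg against Tconv, 3 to 6 for TFR against TFH, 5 to 7 for TFH against Tconv and 1 to 1 for TFR against Treg. In treated mice these were 5 to 5, 3 to 3, 5 to 5 and 2 to 4. Differences of effects gave 0 to 1 for Treg and Tconv, 4 to 4 for TFR and TFH, 3 to 4 for TFH and Tconv and 1 to 5 for TFR and Treg.

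Same-numbered libraries did not deviate together throughout any comparison: in 0 of 12 was every correlation over 0.1, and values ran from -0.71 to 0.59. Both ends stood in TFR against Treg in treated mice, where treated TFR 1 and treated Treg 3 held kidney transcripts. The part of those transcripts was not tested, so these values cannot tell whether same-numbered libraries share a mouse. With the replicate number as a block no count moved by over 1.5 times, and the calls of TNFR1 (adjusted p = 0.060) and CD30 (0.060) in control TFR against TFH and of DR3 between TFR and Treg (0.051) were lost. Relative log expression factors shifted the median of all genes by -0.10 for treatment in Tconv and 0.12 for the difference between Treg and Tconv, and moved no receptor count by over 1.5 times, though treatment in Tconv went from 2 to 3. Thinning to the smallest library moved none by over 1.5 times either, though TFR against TFH in control mice went from 6 to 4. Over all genes the number called ran from 504 to 4701 in the 16 comparisons, from 1458 to 6192 with DESeq2, from 64 to 9503 with only the libraries compared, from 108 to 2487 without 5 libraries and from 362 to 3360 after thinning. CD30 had 0 to 156 counts in the control TFH libraries, whose depth limits what could be seen there.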
